A study of Mus with 96 samples.

Results

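The livers of chow-fed Hep-Bmal1KO and Hep-Bmal1WT mice were compared after leaving out 4 libraries whose expression resembled that of the opposite genotype label, which left 44 of the 48 chow libraries of a series of 96, with 22 for each label. The 4 libraries were named by mouse number in the selection rule, and they had been noticed through their expression in this same comparison. Every value from the 44 libraries is therefore given as a description, with no p-value. Where genes are said to be called or past the threshold with 44, this describes the same fit and is not a test. Larger differences between the labels are in part what the choice produces. The tests come from the 48 libraries as labelled and from the 24 libraries at ZT 2, 14, and 22, where none was left out.

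Hep-Bmal1KO mice carried the genotype AlbCre/+ Bmal1flx/flx, in which Cre recombinase driven by the albumin promoter deletes a floxed part of Bmal1 in hepatocytes, and their Hep-Bmal1WT controls carried the same floxed alleles without Cre. All were C57BL/6J mice of both sexes, 8 to 10 weeks old at the start, kept under light for 12 hours and dark for 12 hours, and fed normal chow (NC) for 2 weeks. Livers were taken at ZT 2, 6, 10, 14, 18, and 22, where ZT counts the hours from lights on, from 4 mice per label and time. Each library is 1 mouse, read from the 3′ ends of transcripts by BRB-seq, and values are given as CPM (counts per 1000000 reads on the genes tested, with each library's total multiplied by its TMM scaling factor) or as log2 fold changes of Hep-Bmal1KO over Hep-Bmal1WT with their standard error (SE). The libraries left out were Hep-Bmal1WT ZT 6 replicate 2 (male), Hep-Bmal1WT ZT 18 replicate 4 (female), Hep-Bmal1KO ZT 6 replicate 4 (female), and Hep-Bmal1KO ZT 10 replicate 3 (female). The 44 others held 11 males and 11 females labelled Hep-Bmal1WT and 12 males and 10 females labelled Hep-Bmal1KO.

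BMAL1, the product of Arntl, pairs with CLOCK or NPAS2 and switches on genes that carry E-box elements, among them the Per and Cry repressors, the nuclear receptors Nr1d1 and Nr1d2, and the output factors Dbp, Tef, and Hlf. NR1D1 and NR1D2 in turn hold down genes with ROR elements, such as Arntl itself, Npas2, Clock, Cry1, and Nfil3. In liver this loop sets daily rhythms in lipid, sterol, glucose, and drug metabolism.

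The distance of the 4 libraries from their own label was measured on a scale where 0 was the median of the Hep-Bmal1WT libraries and 1 that of the Hep-Bmal1KO libraries at the same ZT, with the library itself left aside. On 10 core clock genes, Hep-Bmal1WT ZT 6 replicate 2 stood at 1.1 and Hep-Bmal1WT ZT 18 replicate 4 at 0.983, whereas Hep-Bmal1KO ZT 6 replicate 4 stood at -0.169 and Hep-Bmal1KO ZT 10 replicate 3 at -0.0889. On 20 other genes, chosen for each ZT from the libraries of the remaining times, they stood at 1.02, 0.937, -0.213, and -0.0455 in the same order. They were the 4 libraries past the middle of the scale on both measures. The 4 were chosen by their expression in this comparison, so these positions restate the choice and do not test it. Among the libraries kept, 3 were past the middle on the clock genes, namely Hep-Bmal1WT ZT 22 replicates 3 and 4 (0.722 and 0.581) and Hep-Bmal1KO ZT 2 replicate 4 (0.50 after rounding), and 0 were past it on the other genes. The nearest of these on the other genes were Hep-Bmal1WT ZT 2 replicate 4 at 0.401 and Hep-Bmal1KO ZT 2 replicate 1 at 0.618. On a further measure, of 993 genes called at ZT 2, 14, and 22 outside the clock lists, the 4 stood at 1.08, 0.846, -0.179, and 0.022, and 2 kept libraries, Hep-Bmal1KO ZT 18 replicates 1 and 3 (0.474 and 0.483), were also past the middle.

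**Figure D1:**
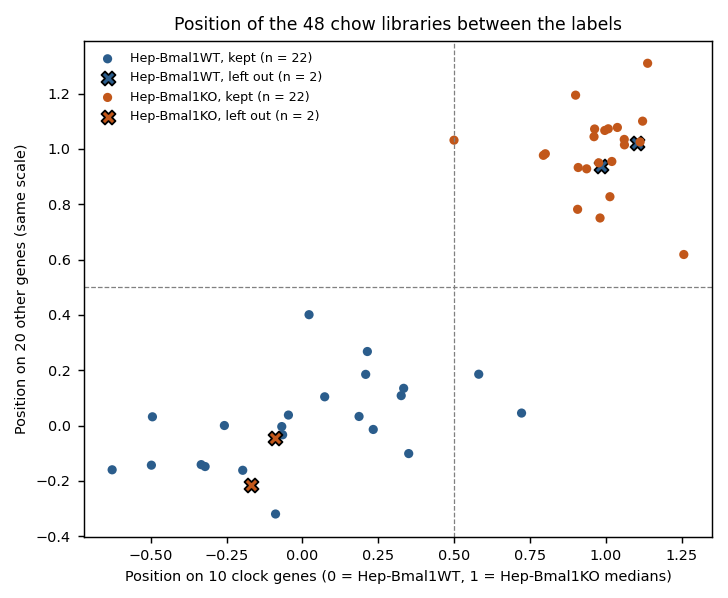
Position of each of the 48 chow libraries between the labels, on 10 clock genes (horizontal axis) and on 20 other genes (vertical axis), where 0 is the Hep-Bmal1WT and 1 the Hep-Bmal1KO median at the same ZT. The 4 libraries left out (crosses) lie with the libraries of the opposite label, at 1.1 and 0.983 or -0.169 and -0.0889 on the clock genes, and dashed lines mark the middle. They were chosen by their expression in this comparison, so the separation restates the choice.

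The depth and the sex markers did not set these libraries apart. Totals on genes ran from 1861740 to 9095237 reads over the chow libraries and from 4759056 to 7502068 in the 4. The summed counts of 4 Y-linked genes were 357 to 908 in the 24 libraries labelled male and 0 to 13 in the 24 labelled female, so that each of the 4 matched its sex label. Their wells, F01, D03, H07, and C08, lay in plate columns that each held 1 genotype and diet, so plate column and genotype cannot be told apart. Of markers of other cell types, summed cholangiocyte markers were at 144 and 84.4 CPM in the Hep-Bmal1WT and 60.7 and 82.5 CPM in the Hep-Bmal1KO libraries left out, against 33.2 to 102 in the 22 Hep-Bmal1WT libraries kept and 65.8 to 145 in the Hep-Bmal1KO libraries kept, ranges that overlap. In bulk liver, fewer cells of a type and less RNA per cell cannot be told apart. Among the kept libraries, 10 transcripts of the exocrine pancreas, listed after their values were seen, reached 1856 CPM in Hep-Bmal1KO ZT 18 replicate 2, 1049 CPM in Hep-Bmal1KO ZT 18 replicate 4, and 169 CPM in Hep-Bmal1WT ZT 2 replicate 3, and at most 1.04 CPM in the 4 left out.

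Arntl (chromosome 7, 113178471 to 113314126 on mm10) had nearly the same mean level in both labels, and leaving out the 4 libraries moved its profile over the day rather than its mean. The deleted part lies upstream of the 3′ end that BRB-seq reads, and other liver cells keep the gene, so these counts do not measure the deletion. The mean over all times was 9.32 ± 7.97 CPM (SD, n = 24) in Hep-Bmal1WT and 7.26 ± 2.85 CPM (SD, n = 24) in Hep-Bmal1KO, and 9.56 ± 8.25 and 7.85 ± 2.11 CPM (SD, n = 22 each) without the 4. The log2 fold change was 0.02 (SE 0.26, adjusted p = 0.98 by edgeR) with 48 libraries and 0.09 (SE 0.25) with 44. At ZT 2, 14, and 22 alone it was -0.52 (SE 0.26, adjusted p = 0.29). In the 3 ZTs that held the libraries left out, it was 0.63 with 24 libraries and 0.90 with 20.

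At ZT 10, the trough of Hep-Bmal1WT, Arntl was at 1.34, 0.779, 0.210, and 0.665 CPM in Hep-Bmal1WT and at 8.69, 6.29, 0.253, and 7.85 CPM in Hep-Bmal1KO. The 0.253 CPM belonged to the library left out, and without it the labels did not overlap at this time. At ZT 6 the Hep-Bmal1KO libraries were at 6.37, 5.2, 11.1, and, in the library left out, 1.21 CPM, and the Hep-Bmal1WT libraries at 4.63, 3.30, 5.83, and, in the library left out, 9.27 CPM. The kept libraries at ZT 6 still overlapped, at 5.83 and 5.2 CPM. At ZT 18, Hep-Bmal1WT was at 8.46, 9.69, 13.6, and, in the library left out, 3.93 CPM, and Hep-Bmal1KO at 7.67, 6.64, 6.96, and 9.94 CPM. Near the Hep-Bmal1WT peak, where none was left out, the order was the opposite of that at ZT 10. At ZT 2 Arntl was at 14.8 to 26.1 CPM in Hep-Bmal1WT and 7.65 to 13 CPM in Hep-Bmal1KO, and at ZT 22 at 12.6 to 22.1 and 7.45 to 9.90 CPM, with no overlap at either time.

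Of the other genes under ROR elements, Npas2 and Cry1 were called higher in Hep-Bmal1KO with 48 libraries, and Clock, Nfil3, and Rora were not called. Npas2, the partner that can stand in for CLOCK, had a log2 fold change of 1.93 (SE 0.42, adjusted p = 0.00088) with 48 libraries and 2.76 (SE 0.37) with 44. At ZT 2, 14, and 22 it was 1.81 (SE 0.45, adjusted p = 0.013). At ZT 6, Npas2 was at 2.76, 0.494, and 0.194 CPM in the Hep-Bmal1WT libraries kept and at 17.1 CPM in the one left out, beside 16.2, 12.7, and 13.2 CPM in the Hep-Bmal1KO libraries kept and 1.04 CPM in the one left out. At ZT 18 the Hep-Bmal1WT libraries were at 0.229, 0, 1.56, and, left out, 19.7 CPM, beside 16.6 to 21.4 CPM in Hep-Bmal1KO. In each of these groups the library left out had the level of the opposite label. Over all times the kept Hep-Bmal1WT libraries ranged from 0 to 22.6 CPM around a median of 0.649, and the kept Hep-Bmal1KO libraries from 10.7 to 21.4 CPM around 16.4, so the ranges still overlapped through Hep-Bmal1WT libraries at ZT 2 and 22. Of the 1.93 to 2.76 change, the 2 libraries labelled Hep-Bmal1WT gave the larger share, since leaving out only these brought the log2 fold change to 2.68 and leaving out only the 2 labelled Hep-Bmal1KO to 2.05.

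Cry1, a repressor of CLOCK and BMAL1, had a log2 fold change of 1.07 (SE 0.22, adjusted p = 0.00056) with 48 libraries, 1.42 (SE 0.17) with 44, and 1.06 (SE 0.16, adjusted p = 5.5e-05) at ZT 2, 14, and 22. At ZT 6 Cry1 was at 4.63, 4.78, and 6.41 CPM in the kept and 54.2 CPM in the left-out Hep-Bmal1WT library, and at 50.1, 49.5, and 41.8 CPM in the kept and 4.32 CPM in the left-out Hep-Bmal1KO library. The mean at this time changed from 17.5 ± 24.5 (SD, n = 4) to 5.27 ± 0.988 CPM (SD, n = 3) in Hep-Bmal1WT and from 36.4 ± 21.7 (SD, n = 4) to 47.1 ± 4.66 CPM (SD, n = 3) in Hep-Bmal1KO. The kept libraries were at 4.63 to 40.7 CPM in Hep-Bmal1WT and 36.8 to 58.4 CPM in Hep-Bmal1KO over the day, overlapping through Hep-Bmal1WT at ZT 22. Clock itself had a log2 fold change of 0.30 (SE 0.11, adjusted p = 0.063) with 48 libraries and 0.41 (SE 0.09) with 44, the latter past the threshold. Nfil3, a repressor of Per genes and D-box genes, was at 0.40 (SE 0.15, adjusted p = 0.078) and 0.41 (SE 0.16), and Rora, an activator at ROR elements, at 0.06 (SE 0.07, adjusted p = 0.71) and 0.09 (SE 0.07). Of the 6 genes listed under ROR elements, 2 passed the threshold with 48 libraries, 3 with 44, and 2 at ZT 2, 14, and 22, all in the direction of higher in Hep-Bmal1KO, where 7.0%, 9.26%, and 3.50% of the 15548 genes tested were higher.

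**Figure D2:**
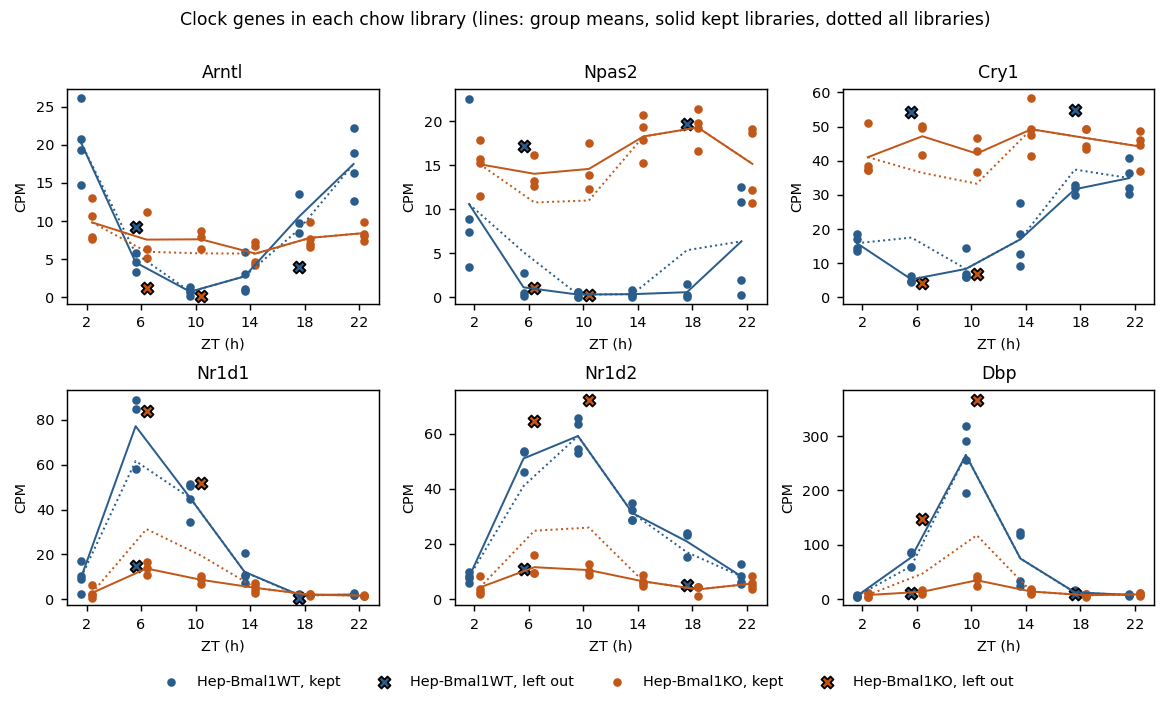
CPM of 6 clock genes in each of the 48 chow libraries against ZT in hours, with crosses for the 4 left out, solid lines through the means of the libraries kept, and dotted lines through the means of all. At ZT 6 and 10 the Hep-Bmal1KO crosses for Nr1d1, Nr1d2, and Dbp lie with or above Hep-Bmal1WT (Dbp 147 and 366 CPM). At ZT 6 and 18 the Hep-Bmal1WT crosses for Npas2 and Cry1 lie with or above Hep-Bmal1KO (Cry1 54.2 and 54.7 CPM).

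Of the 12 genes under E-box elements, Nr1d1, Nr1d2, Ciart, and Bhlhe41 were called lower in Hep-Bmal1KO with 48 libraries, Cry2 was called higher, and the others were not called. For Nr1d1, Nr1d2, and Dbp, the daytime maxima of the Hep-Bmal1KO mean were smaller, though still present, without the 2 libraries left out. Nr1d1 at ZT 6 had a mean of 31.3 CPM with 4 libraries and 13.7 CPM with 3, beside 1.57 CPM at ZT 22. Not every E-box gene kept a daytime maximum, as the kept Hep-Bmal1KO mean of Per3 was 4.29 CPM at ZT 10 and 4.98 CPM at ZT 18. Dbp, which encodes an activator of D-box genes, was at 23.9, 37.8, and 42.6 CPM in the kept Hep-Bmal1KO libraries at ZT 10 and at 366 CPM in the one left out, above the 4 Hep-Bmal1WT libraries at 196 to 318 CPM. At ZT 6 the same label was at 10.2, 14.2, and 16.4 CPM in the kept libraries and 147 CPM in the one left out, beside 59.9, 86.8, and 84.7 CPM in the kept and 12.1 CPM in the left-out Hep-Bmal1WT library. The Hep-Bmal1KO mean at ZT 10 went from 118 ± 166 (SD, n = 4) to 34.8 ± 9.71 CPM (SD, n = 3), beside means of 7.28 to 14.1 CPM in the kept libraries at the other times. The log2 fold change of Dbp was -0.77 (SE 0.30, adjusted p = 0.088) with 48 libraries, not past the threshold, and -1.46 (SE 0.27) with 44. At ZT 2, 14, and 22, which lie mostly off the peak, it was -0.80 (SE 0.37, adjusted p = 0.24).

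Nr1d1 and Nr1d2, the heme-binding repressors of the ROR-element genes, passed the threshold in every chow fit by label except that of the 24 libraries at ZT 6, 10, and 18. For Nr1d1 the log2 fold change was -1.03 (SE 0.26, adjusted p = 0.0043) with 48 libraries, -1.62 (SE 0.21) with 44, and -1.23 (SE 0.31, adjusted p = 0.012) at ZT 2, 14, and 22. Nr1d2 had -1.30 (SE 0.24, adjusted p = 0.00012), -1.85 (SE 0.17), and -1.31 (SE 0.24, adjusted p = 0.00059) in the same order. At ZT 6 Nr1d1 was at 14.0, 10.6, and 16.5 CPM in the kept and 84 CPM in the left-out Hep-Bmal1KO library, and at 58.1, 88.8, and 84.7 CPM in the kept and 14.9 CPM in the left-out Hep-Bmal1WT library. At ZT 10 Nr1d2 was at 8.69, 10.3, and 12.7 CPM in the kept and 72.1 CPM in the left-out Hep-Bmal1KO library, where the 4 Hep-Bmal1WT libraries were at 52.8 to 65.8 CPM. Without the 4, neither gene overlapped between the labels at ZT 6 or 10.

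The other E-box genes moved by unequal amounts. Ciart, a repressor that binds CLOCK and BMAL1, changed from -1.84 (SE 0.42, adjusted p = 0.0016) to -3.07 (SE 0.32) and stood at -2.81 (SE 0.58, adjusted p = 0.0017) at ZT 2, 14, and 22. Bhlhe41, which competes for E-boxes and was at most 6.43 CPM in any chow library, changed from -2.12 (SE 0.66, adjusted p = 0.014) to -3.25 (SE 0.71), beside -3.30 (SE 0.92, adjusted p = 0.0075) at ZT 2, 14, and 22. Per3 was at -0.67 (SE 0.29, adjusted p = 0.13) and, with 44, at -1.13 (SE 0.29), past the threshold. Hlf was at -0.19 (SE 0.08, adjusted p = 0.11) and, with 44, at -0.28 (SE 0.07), also past it. The fold of Cry2, the one member called higher, stayed at 0.32 (SE 0.09, adjusted p = 0.0093) and 0.31 (SE 0.09). Per1 (-0.24 and -0.43), Per2 (-0.26 and -0.23), Tef (-0.18 and -0.29), and Bhlhe40 (-0.18 and -0.25) did not pass in either fit. In all, 4 of the 12 E-box genes were called lower and 1 higher with 48 libraries, 7 and 1 were past the threshold with 44, and 4 and 0 were called at ZT 2, 14, and 22. The backgrounds for lower were 5.61%, 7.83%, and 2.93% of genes, and those for higher 7.0%, 9.26%, and 3.50%. The 1 of 12 higher with 48 and with 44 is near the share over all genes.

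Rhythm amplitude was compared with a 24-hour cosine fitted to variance-stabilized values, a log2-like scale that compresses the amplitudes of genes with few reads. In each of the 18 clock genes the fitted amplitude was the lower one in Hep-Bmal1KO, with 48 and with 44 libraries, as it was in 64.7% and 65.8% of all genes tested. The median difference over the 18 was -0.64 with 48 libraries and -0.88 with 44, beside -0.042 and -0.049 over all genes. With 48 libraries, 12 of the 18 differed at an unadjusted p under 0.05, against 3.84% of all genes with a lower amplitude, and 2, Arntl and Tef, after adjustment over all genes. With 44, the same thresholds were passed by 12, against 5.31% of genes, and by 9. The 12 were not all the same genes, since Cry2 and Bhlhe40 dropped out and Nr1d2 and Npas2 came in. Over all genes, the number with a lower amplitude past the adjusted threshold was 3 with 48 libraries and 66 with 44.

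Most of this change came from the Hep-Bmal1KO side. The median amplitude of the 18 genes went from 1.17 to 1.21 in Hep-Bmal1WT and from 0.396 to 0.231 in Hep-Bmal1KO. The Hep-Bmal1WT amplitude rose in 16 of the 18 and the Hep-Bmal1KO amplitude fell in 15, and the difference between labels grew in 15. Cry2, Clock, and Bhlhe40 were the genes whose Hep-Bmal1KO amplitude did not fall.

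The amplitude of Arntl was 1.5 in Hep-Bmal1WT and 0.40 in Hep-Bmal1KO with 48 libraries, a difference of -1.11 (SE 0.22, adjusted p = 0.044), and 1.53 and 0.22 with 44, a difference of -1.32 (SE 0.15). Leaving out Hep-Bmal1KO ZT 10 replicate 3 alone brought the Hep-Bmal1KO amplitude to 0.24, and leaving out Hep-Bmal1KO ZT 6 replicate 4 alone to 0.36. Leaving out any 1 of the 4 moved the difference by less than its SE, to between -1.12 and -1.27. In Cry1, the Hep-Bmal1KO amplitude went from 0.40 to 0.09 and the Hep-Bmal1WT amplitude from 1.0 to 1.14, so that the difference went from -0.60 (SE 0.28) to -1.05 (SE 0.12). Npas2 kept 1.23 and 1.24 in Hep-Bmal1WT and went from 0.52 to 0.19 in Hep-Bmal1KO.

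Of the 12 E-box genes, 9 were rhythmic in Hep-Bmal1KO with 48 libraries at an unadjusted p under 0.01, and 8 were past that threshold with 44, all but Per3, Cry2, Bhlhe40, and Bhlhe41. Dbp had amplitudes of 2.37 in Hep-Bmal1WT and 1.26 in Hep-Bmal1KO with 48 libraries, a difference of -1.11 (SE 0.40), and of 2.44 and 0.79 with 44, a difference of -1.65 (SE 0.28). For Nr1d1 the Hep-Bmal1KO amplitude went from 1.35 to 0.99, for Nr1d2 from 0.93 to 0.56, and for Per3 from 0.52 to 0.24. Per1 differed little between labels in either set, by -0.011 (SE 0.24) and -0.15 (SE 0.23). The amplitude of Tef differed by -0.86 (SE 0.16, adjusted p = 0.032) and -1.0 (SE 0.14).

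**Figure D3:**
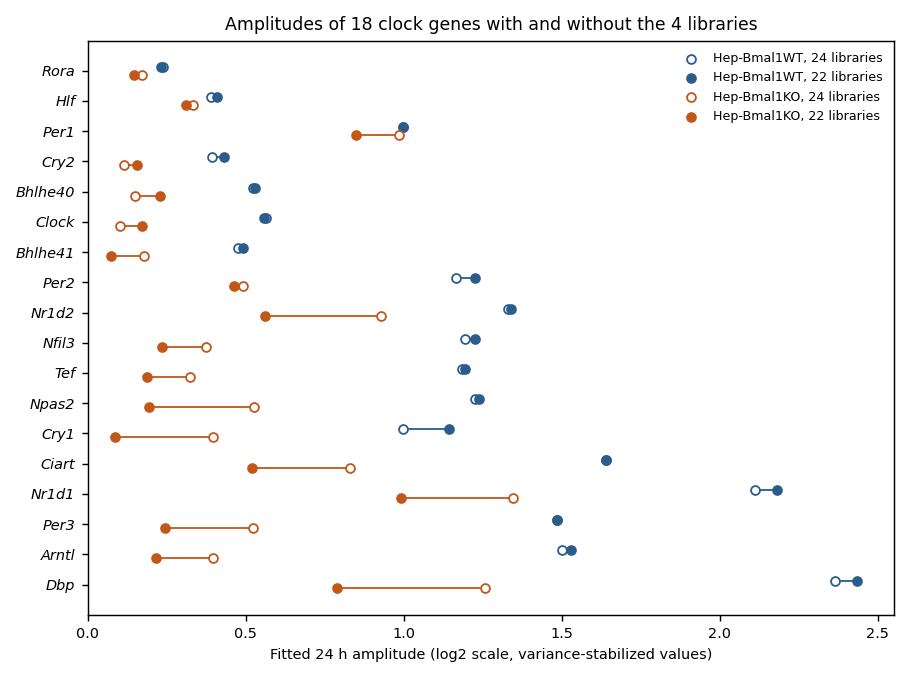
Fitted 24-hour amplitude (log2-like scale of variance-stabilized values) of the 18 clock genes in Hep-Bmal1WT and Hep-Bmal1KO, with open circles for all 24 libraries of a label and filled circles for the 22 kept. The Hep-Bmal1KO circles of Dbp (1.26 to 0.79), Cry1 (0.40 to 0.09), and Npas2 (0.52 to 0.19) moved to the left, while most Hep-Bmal1WT circles nearly coincide (Npas2 1.23 and 1.24).

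A gene was counted as rhythmic in a label at an unadjusted p under 0.01 in a cosine model of the counts. With 48 libraries 3011 genes (19.4% of those tested) were rhythmic in Hep-Bmal1WT and 1401 (9.01%) in Hep-Bmal1KO, and with 44 these were 2801 (18%) and 1330 (8.55%). The sets shared 2536 genes in Hep-Bmal1WT and 1074 in Hep-Bmal1KO. Genes rhythmic in both labels went from 818 to 716. Of the 18 clock genes, 15 were rhythmic in Hep-Bmal1WT and 9 in Hep-Bmal1KO with 48 libraries, and 16 and 8 with 44. Cry2 was added in Hep-Bmal1WT, and Per3 dropped out in Hep-Bmal1KO. The counts fell although the clock genes separated further, and each label then had 22 libraries in place of 24.

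Across all genes, 1960 of 15548 (12.6%) were called in the test of 48 libraries, 1088 (7.0%) higher and 872 (5.61%) lower in Hep-Bmal1KO. With 44 libraries 2656 (17.1%) passed the same threshold, 1439 (9.26%) higher and 1217 (7.83%) lower. Of the 1960, 1911 were among the 2656, which is 97.5% of the first set and 72% of the second, and 0 had opposite signs. A further 745 genes were past the threshold only with 44 (366 higher and 379 lower), and 49 only with 48 (15 higher and 34 lower). The median absolute log2 fold change of the 1960 was 0.380 with 48 libraries and 0.447 with 44, and it was larger with 44 in 1795 of the 1911 shared genes. Their SE hardly changed, with a median ratio of 1.0 between the sets. Leaving out 1 of the 4 at a time gave 2072 to 2210 genes, leaving out both labelled Hep-Bmal1WT gave 2243, and leaving out both labelled Hep-Bmal1KO gave 2408. Without the 3 libraries that held pancreas transcripts, 1870 and 2624 genes passed with 48 and 44 as the starting sets.

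The 24 libraries at ZT 2, 14, and 22 held none of the 4 and gave a test that their removal cannot touch. Here 999 genes (6.43%) were called, 544 (3.50%) higher and 455 (2.93%) lower in Hep-Bmal1KO. At ZT 6, 10, and 18 as labelled, 217 genes (1.40%) were called, 161 (1.04%) higher and 56 (0.360%) lower, and with the 20 libraries kept there, 1443 (9.28%) passed, 817 (5.25%) higher and 626 (4.03%) lower. The 999 genes were then read at ZT 6, 10, and 18, in other mice. With 24 libraries, 959 of them (96%) had the same sign, 117 (11.7%) were called with that sign, and their median log2 fold change in the direction seen at ZT 2, 14, and 22 was 0.368. With 20 libraries these were 971 (97.2%), 606 (60.7%), and 0.535, beside a median of 0.624 at ZT 2, 14, and 22 itself. Over all 15548 genes the share with the same sign was 65.2% with 24 libraries and 67.2% with 20. Pearson's r of the fold changes over those genes, which are not independent of each other, was 0.228 and 0.346. The 4 libraries left out were chosen for lying with the opposite label. The higher values with 20 libraries therefore follow in part from that choice and are not a test.

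Genes of opposite sign between the times included the pancreas transcripts. Of the 10 listed, 9 were called lower at ZT 2, 14, and 22, which hold Hep-Bmal1WT ZT 2 replicate 3, and 8 were called higher at ZT 6, 10, and 18, which hold the Hep-Bmal1KO ZT 18 libraries named above. None of the 10 was called with all 48 libraries or past the threshold with 44.

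**Figure D4:**
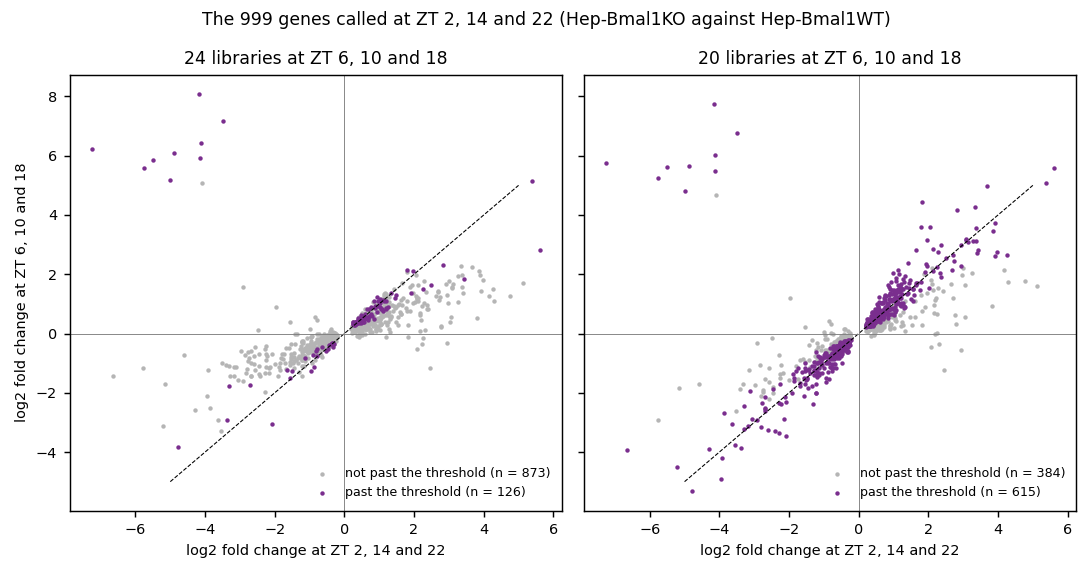
Log2 fold change (Hep-Bmal1KO over Hep-Bmal1WT) of the 999 genes called at ZT 2, 14, and 22 on the horizontal axis, against their log2 fold change at ZT 6, 10, and 18 with all 24 libraries (left) or the 20 kept (right), with genes past the threshold at ZT 6, 10, and 18 in purple and a dashed line of equality. With 24 libraries the points lie flatter than the line (median 0.368) and with 20 nearer to it (median 0.535). The libraries left out were chosen by their expression in this comparison, so the nearer position follows in part from that choice. The points at the upper left include the pancreas transcripts.

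The genes of smallest p at ZT 2, 14, and 22 were read in all 3 sets of libraries. They were chosen for p and for a log2 fold change of at least 1 in size at those times, so their values there are a description. Gstm2, a glutathione transferase, had a log2 fold change of 2.50 (SE 0.11, adjusted p = 1.4e-14) there, 2.05 (SE 0.21, adjusted p = 1.5e-09) with 48 libraries, and 2.52 (SE 0.08) with 44. Its lowest, median, and highest values were 52.1, 77.5, and 119 CPM in the kept Hep-Bmal1WT libraries and 322, 448, and 579 CPM in the kept Hep-Bmal1KO libraries. The libraries left out were at 372 and 500 CPM under Hep-Bmal1WT and at 124 and 69.6 CPM under Hep-Bmal1KO. Lpl, the lipase that frees fatty acids from circulating triglycerides, was at 8.54, 26.2, and 74.8 CPM in the kept Hep-Bmal1WT and 214, 360, and 467 CPM in the kept Hep-Bmal1KO libraries. The libraries left out again had the level of the opposite label, with Lpl at 540 and 229 CPM under Hep-Bmal1WT and at 17.1 and 20.5 CPM under Hep-Bmal1KO. The log2 fold change of Lpl was 3.86 (SE 0.19, adjusted p = 3.7e-14) at ZT 2, 14, and 22, 2.99 (SE 0.36, adjusted p = 8.4e-08) with 48 libraries, and 3.67 (SE 0.14) with 44.

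Hectd2os, annotated on the strand opposite Hectd2 and so not separable from it where the strand setting of the counting is not stated, had 3.90 (SE 0.23, adjusted p = 2.3e-12) at ZT 2, 14, and 22 and went from 2.92 (SE 0.36) to 3.83 (SE 0.16). Cyp2c55, a cytochrome P450, went from 2.87 (SE 0.37) to 3.42 (SE 0.28), beside 3.98 (SE 0.26, adjusted p = 3.8e-11). Gstm6, a near relative of Gstm2 with which it may share reads, went from 1.38 (SE 0.13) to 1.61 (SE 0.08), beside 1.47 (SE 0.11, adjusted p = 2.6e-10).

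On the lower side, Mme, which encodes the peptidase neprilysin, had -3.05 (SE 0.24, adjusted p = 7.7e-10) at ZT 2, 14, and 22 and went from -2.28 (SE 0.30, adjusted p = 3.5e-07) to -2.99 (SE 0.17). Its kept libraries were at 19.8, 32.7, and 49.3 CPM (lowest, median, and highest) in Hep-Bmal1WT and 1.11, 3.40, and 8.27 CPM in Hep-Bmal1KO, and the libraries left out were at 7.55 and 7.69 CPM under Hep-Bmal1WT and 30.6 and 47.6 CPM under Hep-Bmal1KO. Ces1b, a carboxylesterase of a cluster whose members resemble each other, went from -1.35 (SE 0.19) to -1.69 (SE 0.12), beside -1.70 (SE 0.14, adjusted p = 2.2e-09). Abhd6, a monoacylglycerol lipase, went from -0.96 (SE 0.12) to -1.16 (SE 0.09), beside -1.14 (SE 0.10, adjusted p = 1.3e-08). Rasgrp2, an exchange factor for RAP1, went from -0.82 (SE 0.12) to -1.03 (SE 0.09), beside -1.08 (SE 0.10, adjusted p = 1.3e-08). Cyp2a5, a P450 that shares much of its sequence with Cyp2a4, went from -2.06 (SE 0.30) to -2.62 (SE 0.19), beside -2.68 (SE 0.26, adjusted p = 7.3e-08). The libraries of ZT 2, 14, and 22 are part of both larger sets.

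Outside the clock lists, the genes whose fold changed most when the 4 were left out were, on the higher side, Ntrk2, Hectd2os, Grk5, Defb1, and Lpl. Ntrk2, the receptor of brain-derived neurotrophic factor, went from 2.77 (SE 0.39, adjusted p = 1.3e-06) to 3.72 (SE 0.29). Grk5, a kinase of G protein-coupled receptors, went from 2.55 (SE 0.32, adjusted p = 1.9e-07) to 3.36 (SE 0.20), and Defb1, an antimicrobial beta-defensin, from 2.36 (SE 0.33, adjusted p = 1.3e-06) to 3.11 (SE 0.23). At ZT 2, 14, and 22 they stood at 3.35 (SE 0.38), 2.83 (SE 0.22), and 3.12 (SE 0.30).

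On the lower side, the 5 genes named by the same rule, among those reported here, were genes with far more transcript in females than in males. Cyp2a4, a steroid hydroxylase, went from -2.55 (SE 0.86, adjusted p = 0.041) to -4.03 (SE 0.84). Sult2a1 and Sult2a2, sulfotransferases of steroids and bile acids that resemble each other, were not past the threshold with 48 libraries at -1.40 (SE 0.85, adjusted p = 0.33) and -1.24 (SE 0.80, adjusted p = 0.38), and stood at -2.49 (SE 0.81, past it) and -2.16 (SE 0.83, not past it) with 44. Cyp17a1, an enzyme of androgen synthesis, went from -1.69 (SE 0.55, adjusted p = 0.033) to -2.60 (SE 0.50), and Cyp2b13, a cytochrome P450, from -1.66 (SE 0.75, adjusted p = 0.15) to -2.55 (SE 0.75). Of the 4 libraries left out, 3 were female, and the kept set is not balanced for sex in Hep-Bmal1KO.

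Sex was therefore added to the fit of the 48 libraries. Sult2a1 was then at -1.26 (SE 0.34, adjusted p = 0.0068), Sult2a2 at -1.11 (SE 0.32, adjusted p = 0.013), and Cyp2b13 at -1.46 (SE 0.30, adjusted p = 0.00035). Cyp2a4 was at -2.50 (SE 0.44, adjusted p = 2.8e-05) and Cyp17a1 at -1.80 (SE 0.32, adjusted p = 4.2e-05), so all 5 were called with the 4 libraries kept. With sex in the fit of the 44, the 5 stood at -2.18, -1.86, -2.15, -3.24, and -2.54 in the same order. In females, the median of Sult2a1 was 253 CPM in the kept Hep-Bmal1WT (n = 11, range 136 to 507) and 39.9 CPM in the kept Hep-Bmal1KO libraries (n = 10, range 22.5 to 132). The female Hep-Bmal1WT library left out was at 15.2 CPM and the Hep-Bmal1KO libraries left out at 326 and 391 CPM, on the side of the opposite label. Sult2a1 and Cyp17a1 were named because their folds changed most without the 4 libraries. The side on which those libraries lie therefore follows from the choice of genes and is not a test. In males Sult2a1 stayed at or under 2.35 CPM in all libraries. Cyp17a1 in females was at a median of 43.3 CPM in the kept Hep-Bmal1WT (range 16.1 to 85.7) and 7.01 CPM in the kept Hep-Bmal1KO libraries (range 2.54 to 17), with 10.6 CPM and 29.7 and 57.2 CPM in those left out.

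**Figure D5:**
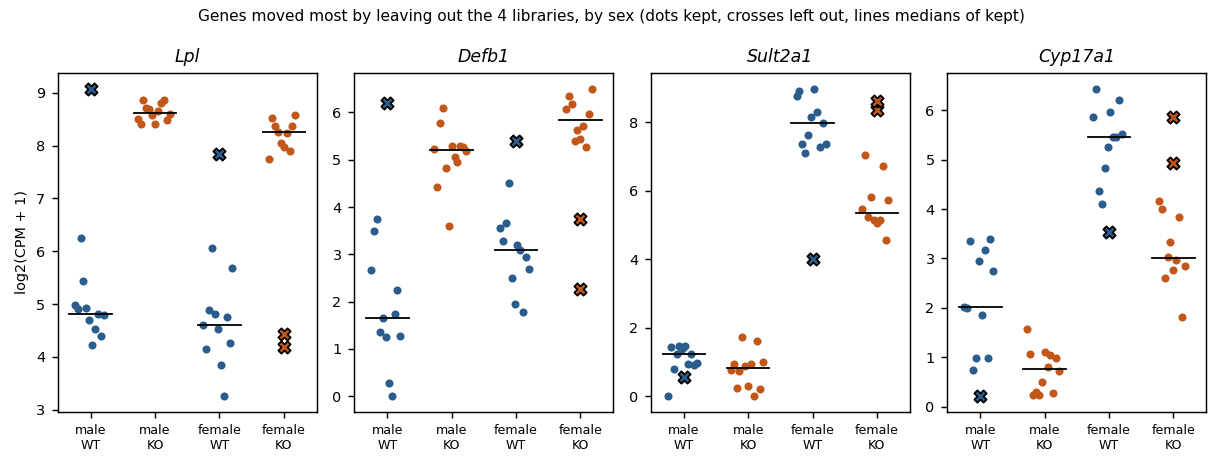
Level of 4 genes in each chow library, as log2(CPM + 1), by sex and label, with crosses for the libraries left out and lines at the medians of the libraries kept. Sult2a1 and Cyp17a1 have lower medians in males than in females of the same label, and in females the crosses (Sult2a1 at 15.2, 326, and 391 CPM) lie with the opposite label. The 4 genes were chosen for how far their folds changed without these libraries, so the place of the crosses follows from that choice.

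Among genes past the threshold only with 44 libraries, 8 were named, Dbp among them, and the folds of Rgs16 and Chrm3 changed most. Rgs16, a regulator of G protein signaling with a daily rhythm in liver, went from -1.37 (SE 0.57, adjusted p = 0.11) to -2.92 (SE 0.55) and stood at -2.60 (SE 0.68, adjusted p = 0.014) at ZT 2, 14, and 22. Gadd45a, a stress-induced growth arrest gene, was at -0.58 (SE 0.24, adjusted p = 0.12) and -1.0 (SE 0.20), and Anks4b, a scaffold protein, at -0.24 (SE 0.09, adjusted p = 0.091) and -0.37 (SE 0.08). Higher were the calcium-dependent phospholipid binder Anxa5 (0.23 and 0.36), Tc2n (0.58 and 0.91), the muscarinic receptor Chrm3 (1.54 and 2.37), and the ubiquitin ligase Rnf144b (0.29 and 0.44). At ZT 2, 14, and 22, Anxa5 (0.47, SE 0.08, adjusted p = 0.00052), Tc2n (0.85, SE 0.25, adjusted p = 0.034), and Chrm3 (3.04, SE 0.77, adjusted p = 0.0061) were called as well. All 745 genes of this kind had at ZT 2, 14, and 22 the sign they had with 44 libraries, and 55 were called there. Those libraries are part of the 44, so the shared sign is not independent.

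The 49 genes called only with 48 libraries had a median absolute log2 fold change of 0.509 in that fit, and 8 of them were named by rule. Slc2a10, a glucose transporter, had -1.99 (SE 0.91, adjusted p = 0.014) with 48 libraries and -1.58 (SE 1.04) with 44, at no more than 0.993 CPM in any library. Ppp1r27 (-2.98 and -2.04), Mdfi (-1.70 and -1.54), Nmrk2 (-2.62 and -2.07), Cstdc4 (1.92 and 0.90), and Asprv1 (2.18 and 2.03) had SEs of 0.64 or more in both fits. Cd99l2 (0.17 and 0.16) and Lsm5, of the LSM complex (0.24 and 0.23), lost the call at nearly the same fold.

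In the metabolic gene lists, each member past the threshold in both sets had the same sign in both. Their counts stand beside 7.0% of all genes tested called higher and 5.61% lower with 48 libraries, and 9.26% and 7.83% past the threshold with 44. Of 18 genes of sterol synthesis, 16 were called higher and 0 lower with 48 libraries, and likewise 16 and 0 passed with 44, with a median log2 fold change of 0.63 and 0.72, beside -0.012 and -0.011 over all genes. At ZT 2, 14, and 22, 14 of the 18 were called higher. Cyp51, the lanosterol demethylase, was at 0.67 (SE 0.08, adjusted p = 8.4e-08) and 0.74 (SE 0.08), and Fdps, which makes farnesyl diphosphate, at 0.65 (SE 0.08, adjusted p = 2.4e-07) and 0.76 (SE 0.07). Mvk, mevalonate kinase, was at 0.84 (SE 0.11, adjusted p = 2.6e-07) and 0.91 (SE 0.11), and Tm7sf2, a sterol reductase, at 0.57 (SE 0.06, adjusted p = 3.5e-09) and 0.63 (SE 0.06). In the 14 genes of sterol control and transport, 3 were called higher and 1 lower in both sets, and 1 of 14 lower is near the share over all genes. These were Insig2, which retains SREBP in the endoplasmic reticulum (0.97, SE 0.17, and 1.18, SE 0.14), the sterol exporters Abcg5 (0.48 and 0.54) and Abcg8 (0.33 and 0.38), and, lower, the lysosomal cholesterol carrier Npc1 (-0.32 and -0.43).

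Of 25 genes of amino acid metabolism and the urea cycle, 13 were called higher and 1 lower in both sets, although not the same 13, since Hpd passed only with 48 and Cps1 only with 44 (both named after their values were seen). Bhmt, betaine-homocysteine methyltransferase, was at 1.06 (SE 0.17, adjusted p = 1.6e-05) and 1.28 (SE 0.16), Agxt, which detoxifies glyoxylate, at 0.97 (SE 0.16) and 1.16 (SE 0.15), and Cbs, of transsulfuration, at 0.68 (SE 0.10) and 0.79 (SE 0.09). Asl, of the urea cycle, was lower at -0.55 (SE 0.09, adjusted p = 3.1e-05) and -0.64 (SE 0.09), and 1 of 25 lower is near the share over all genes. Of 16 carbohydrate genes, 3 were higher and 6 lower with 48 and 3 and 7 with 44, beside shares over all genes of 7.0% and 5.61% with 48 and 9.26% and 7.83% with 44. Among the lower were Gys2, the liver glycogen synthase, at -0.99 (SE 0.14, adjusted p = 1.8e-06) and -1.23 (SE 0.11), the glucose transporter Slc2a2 at -0.60 (SE 0.11) and -0.74 (SE 0.09), Khk, fructokinase, at -0.38 (SE 0.08) and -0.48 (SE 0.06), and Pklr, pyruvate kinase, at -0.51 (SE 0.11) and -0.60 (SE 0.10).

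Of 19 genes of fat oxidation, 2 were called higher and 8 lower with 48 libraries, and 2 and 10 passed with 44, while the share of all genes that were lower went from 5.61% to 7.83%. Acaa1b, a peroxisomal thiolase, was at -0.73 (SE 0.13, adjusted p = 4.6e-05) and -0.88 (SE 0.11), and the carnitine carrier Slc25a20 at -0.39 (SE 0.08, adjusted p = 0.00021) and -0.50 (SE 0.06). Pdk4, which restrains pyruvate oxidation and was not chosen by the naming rule, was higher at 1.09 and 1.32. The 2 of 19 higher are near the share over all genes, 7.0% with 48 and 9.26% with 44. Of 16 tested genes of lipid synthesis, 1 was higher and 5 lower with 48, and 1 and 7 with 44, where 1 of 16 higher is again near the share over all genes. Mlxipl, which encodes ChREBP, was at -0.57 (SE 0.09, adjusted p = 2.2e-05) and -0.62 (SE 0.10), Me1, malic enzyme, at -0.46 (SE 0.12) and -0.56 (SE 0.12), Lpin2, a phosphatidate phosphatase, at -0.49 (SE 0.13) and -0.62 (SE 0.13), and Elovl5, an elongase, at 0.40 (SE 0.10) and 0.46 (SE 0.10). Fasn, fatty acid synthase (-0.41 and -0.50), and the elongase Elovl6 (-0.36 and -0.46) passed only with 44, and were named after their values were seen.

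Of 11 carboxylesterases, 1 was higher and 4 lower with 48 libraries and 1 and 5 with 44, with Ces1e at -0.80 (SE 0.12) and -0.97 (SE 0.09), Ces1d at -1.13 (SE 0.19) and -1.38 (SE 0.15), and Ces2e at 0.30 (SE 0.06) and 0.33 (SE 0.07). Of 18 clock-output genes of drug and intermediary metabolism, 1 was higher and 10 lower with 48, and 3 and 12 with 44. Over all genes 7.0% were higher and 5.61% lower with 48, and 9.26% and 7.83% with 44. The 1 of 18 higher with 48, and the 1 of 11 carboxylesterases higher in each set, are near the share over all genes. In this list Por, the electron donor of P450 enzymes, was at -0.74 (SE 0.15) and -0.96 (SE 0.13), Nampt, of NAD synthesis, at -0.57 (SE 0.12) and -0.71 (SE 0.11), and Fmo5 at -0.49 (SE 0.11) and -0.53 (SE 0.11). In the bile acid list of 14, 1 was higher and 1 lower with 48, the export pump Abcb11 (0.22 and 0.26) and the receptor Nr1h4 (-0.21 and -0.24), and 2 and 2 with 44, where Cyp8b1 (0.40 and 0.54) and Nr0b2 (-0.53 and -0.54) joined. Of 22 ribosome biogenesis genes, Npm1 (0.31 and 0.34), Nop10 (0.38 and 0.47), and Nhp2 (0.25 and 0.31) were higher in both sets, and of 10 immediate early genes Ier2 (-0.40 and -0.42) was lower in both. The counts of the bile acid list with 48 and of the immediate early genes are near the shares over all genes, and so read as no result about these lists.

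Markers of cell types moved in part with the labels. Of 8 hepatocyte markers, Alb and Hnf4a were called lower with 48 libraries, at -0.83 (SE 0.15, adjusted p = 5.7e-05) and -0.29 (SE 0.06, adjusted p = 0.0011), and stood at -1.06 (SE 0.11) and -0.34 (SE 0.07) with 44, where Cps1 (0.20) passed as higher. Alb carries the promoter that drives Cre here, and most of the summed marker level, which was 132109 to 212173 CPM in the kept Hep-Bmal1WT and 86960 to 145536 CPM in the kept Hep-Bmal1KO libraries. The Hep-Bmal1WT libraries left out were at 106885 and 125946 CPM and the Hep-Bmal1KO libraries left out at 215418 and 214555 CPM, again on the opposite side. Of 5 cholangiocyte markers, Sox9 (1.06 and 1.29) and Spp1 (0.68 and 0.82) were higher in both sets, and Epcam, Krt19, and Krt7 were not called. Of 10 macrophage, 8 stellate cell, 5 lymphocyte, and 3 neutrophil markers, 0 passed in either set, and of 7 endothelial markers 0 passed with 48 and 1, Fcgr2b (-0.20), with 44. Over all genes tested, 7.0% were higher and 5.61% lower with 48, and 9.26% and 7.83% with 44. The 1 of 8 hepatocyte markers higher (Cps1) and 1 of 7 endothelial markers lower with 44 are near those shares. The part of cell composition in the gene differences was not tested.

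Mice fed a choline-deficient high-fat diet (cdHFD), 24 per label and all kept as labelled, gave a comparison in other animals, with a different diet. The position between the labels was measured on chow only. Whether any cdHFD library resembled the opposite label, and the part of this in the values below, was not tested. There 1494 genes (9.61%) were called between Hep-Bmal1KO and Hep-Bmal1WT, 718 (4.62%) higher and 776 (4.99%) lower. Of the 1911 genes in both chow sets, 79.6% had the same sign on cdHFD and 24% were called with that sign. Of the 745 genes past the threshold only with 44 chow libraries, these were 75.7% and 16.5%. Of the 49 called only with 48 they were 46.9% and 4.08%, and of all genes tested, 59.6% and 7.45%. The named members of the 49, except Cd99l2 and Lsm5, rest on few reads, so their signs are uncertain. Slc2a10, for example, had a mean of 0.123 CPM in the 24 chow Hep-Bmal1WT libraries. Of the 8 genes named as past the threshold only with 44 chow libraries, 6 were called with the same sign on cdHFD, among them Dbp (-0.72, SE 0.21, adjusted p = 0.020) and Rgs16 (-1.42, SE 0.25, adjusted p = 0.00010), and Chrm3 and Gadd45a were not. Arntl was at -0.50 (SE 0.20, adjusted p = 0.10) and Npas2 at 1.17 (SE 0.33, adjusted p = 0.014). The sterol synthesis list, with 16 of 18 called higher on chow, had 0 called higher and 2 lower on cdHFD. The cdHFD also held cholesterol, and its part in this difference was not tested.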

How the data were processed

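Liver RNA of 96 mice was sequenced by BRB-seq, a 3′ method with sample barcodes (MERCURIUS kit, Illumina NovaSeq). Per the labels, reads were aligned to mm10 with STAR and counted with HTSeq or featureCounts, and the authors deposited 1 table of unnormalized counts for 55487 genes. Versions, strand setting, and use of molecular identifiers were not given in the sources used here. A further 5 rows name no gene (22.6% to 39.9% of reads in the chow libraries) and were left out. The 15548 genes with at least 100 counts over the 96 libraries were tested.

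Genotype labels were compared with edgeR 4.0.16 (TMM, quasi-likelihood F test, ZT as a factor, R 4.3.3), with Benjamini-Hochberg adjustment over all genes tested and a threshold of 0.05. The fold changes include the small count that edgeR adds, and their SE come from the coefficient without it where that was bounded. For genes with few reads, such as Slc2a10 and Bhlhe41, a fold and its SE therefore do not give the p-value. Rhythms were tested per label with 24-hour cosine and sine terms in edgeR. Amplitudes came from least-squares cosine fits to variance-stabilized counts (DESeq2 1.42.0), with SE by the delta method. The fits were tested on simulated data. CPM are counts per 1000000 reads on the genes tested, with each library's total multiplied by its TMM factor over the 96 libraries. Their precision rests on the unscaled counts, with totals on genes of 1861740 to 9095237 reads, for counting error only.

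Groups were taken from the sample labels, with replicates numbered in accession order. The libraries left out, the gene lists, and the rule for named genes were chosen with earlier results of these data known. Named were Arntl and the listed clock genes, up to 4 genes of smallest p in each other list, the 5 genes in each direction whose fold changed most (mean of at least 10 CPM), the 5 in each direction of smallest p at ZT 2, 14, and 22 with a log2 fold change of 1 or more in size, and 4 in each direction past the threshold in only 1 set. Coordinates are those of RefSeq for GRCm38.p6, matched by symbol (93 of 93 genes). Alternatives were DESeq2, its size factors, other count filters, sex as a covariate, and leaving out each replicate. Some genes are not reported here.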

Additional observations from a re-analysis of the deposited data

Results flagged for a closer look

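Groups of 4 libraries numbered 216 (18 clock genes at 6 times in 2 labels). In 34 of them, 1 library stood apart from the other 3 by Dixon's criterion. In 18 of these the library was 1 of the 4 left out, present in 72 of the groups. The criterion is set so that chance gives about 1 group in 20. The genes share their libraries, and some groups, as of Bhlhe41, hold few reads, so the 34 cannot be held to that rate. The 4 were chosen because their expression stood apart in these data. The count of 18 therefore follows from the choice and is not to be read against chance.

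In Hep-Bmal1KO ZT 6 replicate 4, Nr1d1 was at 84 CPM (others 10.6 to 16.5), Nr1d2 at 64.5 (9.4 to 15.9), Dbp at 147 (10.2 to 16.4), Ciart at 7.78 (0 to 0.522), Bhlhe41 at 1.38 (others at 0), and Nfil3 at 8.82 (23.6 to 26.1). In Hep-Bmal1KO ZT 10 replicate 3, Per3 was at 48.3 CPM (3.36 to 4.81), Nr1d1 at 51.9 (6.70 to 10.4), Nr1d2 at 72.1 (8.69 to 12.7), Dbp at 366 (23.9 to 42.6), Tef at 152 (54 to 68.1), Ciart at 24.3 (0.543 to 3.85), and Bhlhe41 at 1.27 (0 to 0.160). In Hep-Bmal1WT ZT 6 replicate 2, Per2 was at 21.7 CPM (4.47 to 7.25), Npas2 at 17.1 (0.194 to 2.76), and Cry1 at 54.2 (4.63 to 6.41). In Hep-Bmal1WT ZT 18 replicate 4, Npas2 was at 19.7 CPM (0 to 1.56) and Cry1 at 54.7 (29.9 to 33).

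In the libraries kept, the values that stood apart were spread over labels and times. In Hep-Bmal1WT these were Cry2 at 12.4 CPM in ZT 6 replicate 1 (others 21.2 to 21.6), Cry1 at 14.4 in ZT 10 replicate 4 (6.01 to 6.94), Per2 at 47 in ZT 14 replicate 3 (28.6 to 31.1), Clock at 15.9 (12.1 to 12.5) and Bhlhe41 at 1.61 (0.511 to 0.654) in ZT 14 replicate 1, and Nr1d1 at 2.85 in ZT 22 replicate 2 (1.72 to 1.83). In Hep-Bmal1KO at ZT 2, Per1 was at 7.92 CPM (3.01 to 3.23), Nfil3 at 26.3 (21.2 to 21.9), and Bhlhe41 at 0.184 (others at 0) in replicate 2, and Cry1 at 50.9 in replicate 4 (37.2 to 38.6). At later times in Hep-Bmal1KO, Per2 was at 3.66 CPM in ZT 6 replicate 3 (8.64 to 9.65), Nfil3 at 27.3 in ZT 14 replicate 2 (20.4 to 20.7), Bhlhe41 at 0.269 in ZT 14 replicate 3 and 0.568 in ZT 18 replicate 3 (others at 0), Ciart at 0.852 in ZT 18 replicate 3 (0.178 to 0.261), and Nr1d2 at 1.04 in ZT 18 replicate 2 (4.26 to 4.46).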

How the results depend on the processing

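DESeq2 in place of edgeR, its size factors, other count filters, sex as a covariate, and the removal of the libraries with pancreas transcripts (chosen after seeing the data) kept the number of genes called within 1.5 times in each set. The log2 fold change of Arntl, which was never called, was -0.0015 with sex as a covariate and 48 libraries. With DESeq2 it was 0.15 (SE 0.27) with 48 libraries and 0.23 (SE 0.26) with 44. At ZT 6, 10, and 18 alone (also chosen after seeing the data), 217 genes were called with 24 libraries and 1443 passed with 20. At an adjusted p under 0.05, 675 genes were rhythmic in Hep-Bmal1KO with 48 libraries and 605 with 44. Leaving out each replicate number in turn removes up to 12 libraries, numbered only by accession order. Over these fits and those leaving out single libraries, 940 to 2210 genes were called with 48 libraries as the start (940 without replicate 1 and 1184 without replicate 2), 1768 (without replicate 2) to 2113 with 44, and 540 to 649 at ZT 2, 14, and 22, where each removal lowered the count by over 1.5 times. The log2 fold change of Arntl with 48 ran from -0.0068 to 0.036 over the replicate numbers, and from -0.019 to 0.084 when 1 of the 4 libraries was left out. Of the 18 clock genes, 7 (without replicate 1) to 11 differed in amplitude with 48 and 12 to 13 with 44. Rhythmic genes in Hep-Bmal1KO numbered 900 to 945 with 48 and 776 to 1126 with 44, and in Hep-Bmal1WT 1840 to 2122 with 44. Fewer libraries enter each of these fits. No paired analysis was possible because replicate numbers in the labels are missing and each mouse gave 1 library. Genes under 1 CPM rest on few reads, such as Bhlhe41, Chrm3, and Slc2a10.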
